A study of Rattus norvegicus with 458 samples.

Results

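The miR-205 and miR-203 family of the rat was followed across a small RNA sequencing atlas of 23 tissues. All rows of the deposited miRNA table were taken whose name, or 1 part of a joint name, is miR-205 or an arm of miR-203a or miR-203b, precursor names left aside. This gave 6 of 7534 names: miR-205, miR-203a-3p, miR-203a-5p, miR-203b-3p, miR-203b-5p and a joint name of miR-203a-3p with a predicted miRNA. Untreated Sprague Dawley rats of 12 to 13 weeks were used, 5 males and 5 females. All 10 rats gave libraries of 19 tissues. Testis came from the 5 males, ovary and uterus from the 5 females, and dorsal root ganglion from 2 RNA pools, a male and a female one, with 10 technical libraries. The paper states that Takeda Pharmaceuticals supplied the ganglion RNA, so that its source differed from that of the other tissues. Whole pieces of organ were sequenced, so that fewer cells of a type and less RNA per cell cannot be told apart in any value below.

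A miRNA pairs with messenger RNAs mainly through bases 2 to 8, its seed, and lowers the output of those messages. miR-205 is best known from stratified squamous epithelia such as the epidermis and, together with the miR-200 family, represses the ZEB transcription factors that switch off epithelial genes. miR-203 rises as keratinocytes differentiate and represses the basal cell factor p63. The rat stomach joins both kinds of lining in 1 organ: the non-glandular part, or forestomach, carries a keratinized squamous epithelium, the glandular part a columnar mucosa with acid-secreting and endocrine cells, and both lie on a wall of smooth muscle.

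The mature sequences show how the family is related, and come from RefSeq (assembly GRCr8, all 5 single names matched), with the seed in capitals:
rno-miR-205: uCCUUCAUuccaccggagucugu
rno-miR-203a-3p: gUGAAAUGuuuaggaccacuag
rno-miR-203a-5p: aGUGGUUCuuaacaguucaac
rno-miR-203b-3p: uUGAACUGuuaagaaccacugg
rno-miR-203b-5p: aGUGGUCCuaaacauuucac
miR-205 lies on the minus strand at chr13:107564588-107564610 and shares no seed with the others. The 2 miR-203 genes occupy the same place on opposite strands. miR-203a-3p is read from the plus strand at chr6:137020756-137020777 and miR-203b-3p from the minus strand at chr6:137020716-137020737, within the gene that RefSeq calls Mir3545. The hairpins are shown to make this visible, each with its 2 mature arms in capitals:
Mir203 hairpin: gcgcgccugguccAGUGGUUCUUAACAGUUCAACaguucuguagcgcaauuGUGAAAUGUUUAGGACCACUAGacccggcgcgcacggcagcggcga
Mir3545 hairpin: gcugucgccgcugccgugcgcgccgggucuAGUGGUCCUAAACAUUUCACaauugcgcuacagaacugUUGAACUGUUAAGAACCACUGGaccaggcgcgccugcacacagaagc
The whole Mir203 hairpin of 97 bases lies inside the reverse complement of the 115 bases of the Mir3545 hairpin. Lined up from their 5′ ends, miR-203a-3p and miR-203b-3p are identical at 17 of 22 positions and at 6 of 7 seed positions. With miR-203a-3p first, in DNA letters, and positions counted from 1 at the 5′ end, the differences are G1T, A6C, T11A, G14A and A21G. No other single miRNA name in the table has a most counted sequence with the seed of miR-205, miR-203a-3p or either 5p arm, and for miR-203b-3p the only other name is miR-1927, with 1 count.

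Library totals lay between 376401 and 17725805 counts (median 4816409), and those of the non-glandular stomach between 4933863 and 9484960. Levels are given as CPM, the share of a name in the counts of its library, scaled to 1000000 counts, so that a miRNA that fills a library lowers all others. miR-143-3p, the main smooth muscle miRNA, took a median of 85.2% of all counts in the non-glandular and 74.2% in the glandular stomach. Upper quartile scaling, which the fits used, counts such a library as smaller than its total: on average 0.338 of the total in the non-glandular and 0.576 in the glandular stomach. Fold changes from the fits therefore differ from ratios of CPM. For miR-205, the non-glandular stomach over whole kidney was 10.2-fold by mean CPM and 24.6-fold in the fit, and over whole blood, where scaling counts a library as 0.180 of its total on average, 2462-fold and 1333-fold. For 10 libraries the correlation with another tissue exceeded that with their own label, namely 4 of the duodenum (rats 2, 4, 7 and 11), 3 of the hippocampus (rats 2, 6 and 7) and 1 each of the adrenal (rat 8), the uterus (rat 8) and the ovary (rat 11). They were kept under their labels, and values that they move are also given without them. No stomach library was among them.

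miR-205 was highest in the non-glandular stomach. Its 10 libraries held 579 to 1383 CPM with a median of 1064, and a mean of 1074 ± 226 (SD). The glandular stomach came next with 190 to 949 CPM, a median of 575 and a mean of 555 ± 265 (SD, n = 10). The ranges of the 2 stomach regions overlapped, whereas all 21 other tissues lay wholly below the lowest non-glandular library. Whole kidney was the highest of these at 105 ± 40.2 CPM (SD, n = 10), followed by the kidney medulla at 93.7 ± 29.6 (SD, n = 10), the ovary at 88.6 ± 23.4 (SD, n = 5; 96.9 ± 16.6, n = 4, without its library nearer another tissue) and the biceps at 84.2 ± 34.9 (SD, n = 10). No adjacent pair of these 4 passed the test of neighbours described below, and their other pairs were not tested.

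Below them stood a broad middle group. The ileum, pancreas, duodenum, soleus, uterus and jejunum had means between 37.0 and 45.0 CPM, and no adjacent pair among them passed the test of neighbours. Without the libraries nearer another tissue the duodenum stood at 54.5 ± 7.84 CPM (SD, n = 6), above the ileum at 45.0, and the uterus at 33.8 ± 7.16 (SD, n = 4). The hippocampus averaged 29.3 ± 23.2 CPM (SD, n = 10), but 16.2 ± 3.19 (SD, n = 7) without its 3 such libraries, the testis 26.4 ± 17.1 (SD, n = 5) and the 2 dorsal root ganglion pools 18.7 and 19.3. The kidney cortex held only 22.3 ± 12.5 CPM (SD, n = 10), and its highest library at 48.0 lay just under the lowest kidney medulla library at 48.2. The remaining brain regions, the adrenal, the liver, the heart and blood made up the low end. The adrenal averaged 7.77 CPM (n = 10), and 2.65 ± 1.17 (SD, n = 9) without the library of rat 8 at 53.8. The cerebrum held 12.4 CPM, the liver 3.51, the brainstem 2.84, the heart 1.08, the cerebellum 1.07 and whole blood 0.436 (means of 10). Neighbours were compared with an unpaired test, which took no account of the rats that tissues share. Of the 22 pairs of neighbours in the order of miR-205, 6 passed this two-sided permutation test of mean log2(CPM + 1) adjusted over the 66 pairs of the 3 abundant members, and 5 did without the libraries nearer another tissue. The steps from non-glandular to glandular stomach (permutation test, adjusted p = 0.00594) and from glandular stomach to kidney (adjusted p = 0.00099) were among them.

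**Figure D1:**
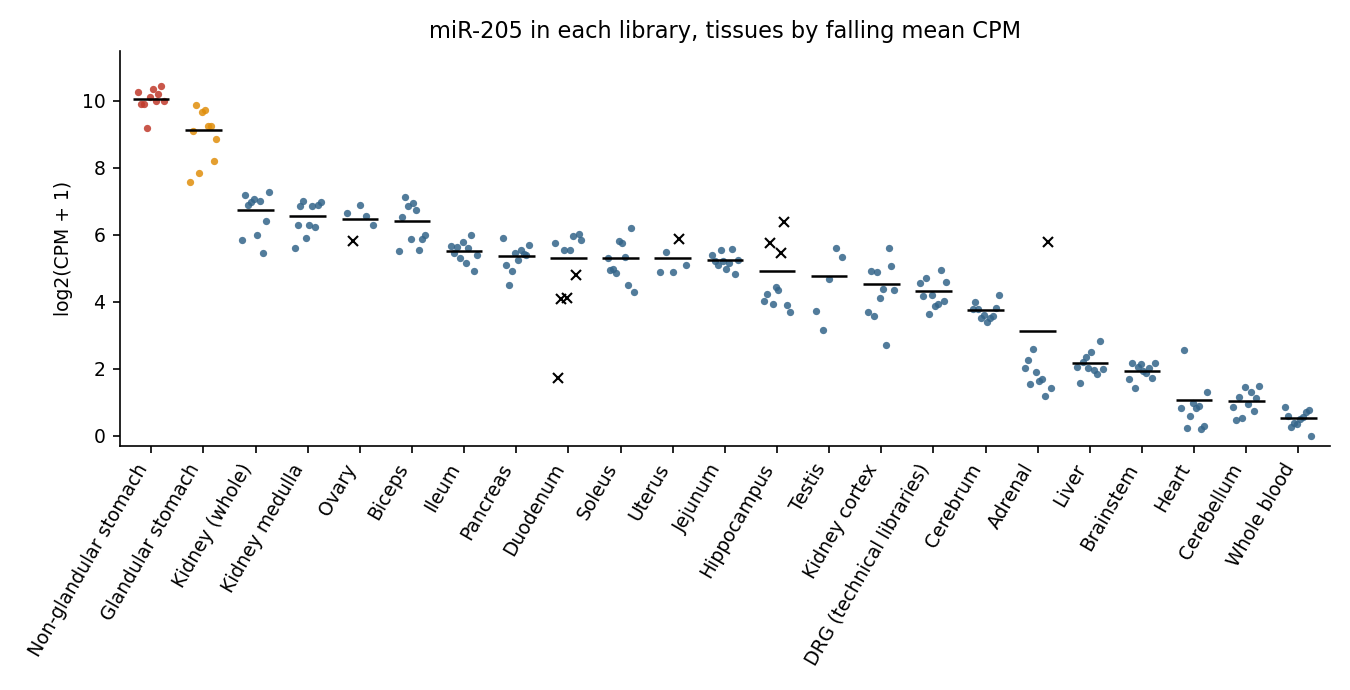
miR-205 in every library as log2(CPM + 1), tissues ordered by falling mean CPM, with black bars for the logarithm of the mean CPM plus 1 and crosses for the libraries that correlated better with another tissue. The non-glandular stomach (red, mean 1074 CPM) stands above the glandular stomach (orange, mean 555 CPM), and all libraries of the other tissues lie below the lowest red point.

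By its share of all counts, miR-203a-3p was about as high in the intestine as in the squamous stomach. The ileum held 1251 to 1932 CPM (median 1635, mean 1601 ± 212), the non-glandular stomach 1079 to 1911 (median 1587, mean 1581 ± 240) and the jejunum 1193 to 1768 (median 1550, mean 1494 ± 194; SD, n = 10 each). These 3 tissues overlapped widely, and neither the ileum and the non-glandular stomach (permutation test, adjusted p = 0.951) nor the non-glandular stomach and the jejunum (adjusted p = 0.761) differed beyond their spread. The duodenum averaged 903 ± 769 CPM (SD, n = 10), of which 4 libraries, the ones nearer another tissue, held 18.7 to 35.5 CPM, while the other 6 averaged 1490 ± 176 (SD). Over the scaled library sizes of the fits the order was another, with a mean of 5251 ± 1989 CPM in the non-glandular stomach, 2537 ± 1069 in the ileum and 2526 ± 963 in the jejunum (SD, n = 10 each). In the fit of all libraries neither difference was called, and both were without the libraries nearer another tissue.

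The glandular stomach held 349 to 1397 CPM of miR-203a-3p (median 733, mean 777 ± 356; SD, n = 10). Liver, an organ without squamous epithelium, followed with 670 ± 187 CPM (SD, n = 10), which did not differ from the glandular stomach beyond the spread (permutation test, adjusted p = 0.906). The pancreas (383 CPM), kidney cortex (368), whole kidney (328), kidney medulla (257) and testis (177) came next. Means in the ovary (315 CPM), uterus (309), adrenal (175) and hippocampus (159) rested on 1 library each, namely those of rats 11, 8, 8 and 6 at 1408, 1301, 1268 and 1339 CPM. Without the libraries nearer another tissue these means were 42.0, 61.6, 53.4 and 16.9 CPM. Whole blood was lowest at 2.02 ± 0.965 CPM (SD, n = 10). With all libraries 14 tissues lay wholly below the non-glandular range, and 18 without the libraries nearer another tissue.

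miR-203b-3p, from the opposite strand of the miR-203a gene, had another distribution. It was highest in the kidney cortex with 179 to 428 CPM (median 250.0, mean 266 ± 77.2), then in whole kidney at 187 ± 45.9, the liver at 132 ± 42.3 and the kidney medulla at 99.8 ± 53.5 (SD, n = 10 each). These 4 tissues stood apart from the rest: the next, the jejunum, held 10.9 ± 2.56 CPM (SD, n = 10), and the step from the kidney medulla to the jejunum passed the test (permutation test, adjusted p = 0.00099). In both stomach regions the miRNA was scarce, with 0.503 to 2.54 CPM in the non-glandular part (mean 1.38) and 0.986 to 4.80 in the glandular part (mean 2.30). The kidney cortex thus held the most miR-203b-3p of all tissues and, of the 3 kidney samples, the least miR-205.

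**Figure D2:**
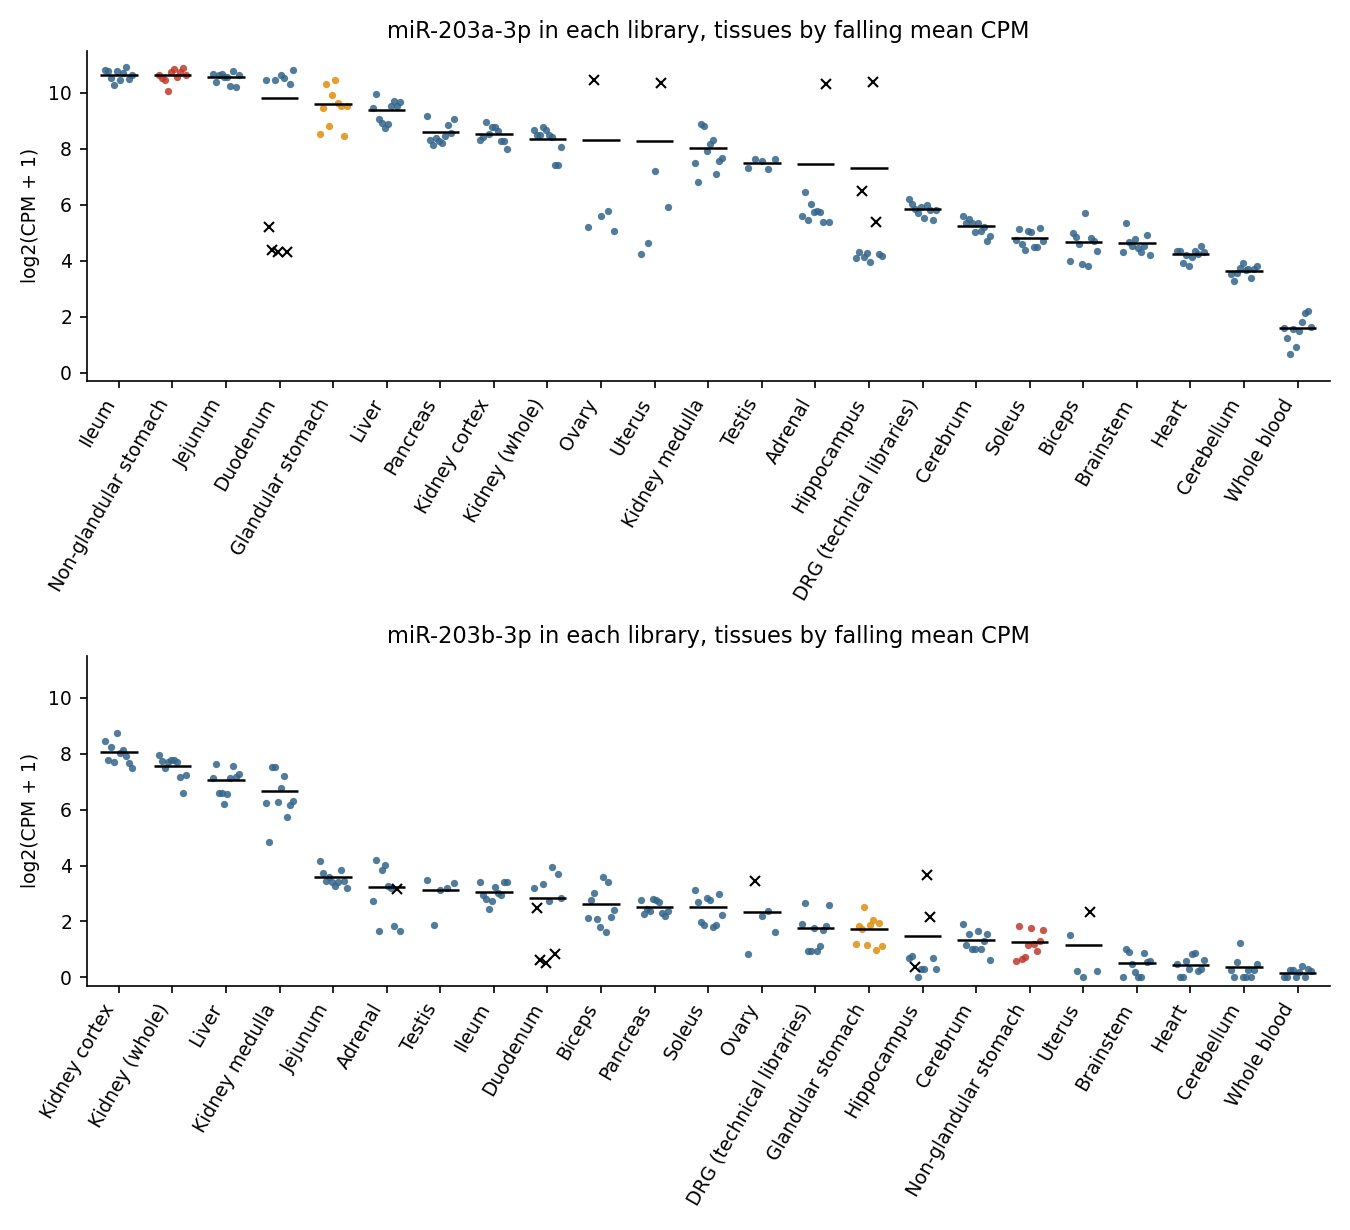
miR-203a-3p (top) and miR-203b-3p (bottom) in every library as log2(CPM + 1), each with its own order of tissues by falling mean CPM; black bars and crosses as for miR-205. For miR-203a-3p ileum, non-glandular stomach and jejunum stand together at means of 1494 to 1601 CPM, and single crosses lift the ovary, uterus, adrenal and hippocampus, whereas for miR-203b-3p 3 kidney samples and the liver stand above all other tissues.

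The remaining names were rare. miR-203a-5p, the passenger arm of miR-203a, had 515 counts in all libraries together, with means of 1.90 CPM in the ileum, 1.63 in the jejunum, 1.48 in the non-glandular and 0.951 in the glandular stomach. It had no count in the heart, the biceps and whole blood, where 3 counts of the summed totals would be 0.0536, 0.0605 and 0.0461 CPM, for counting error only. miR-203b-5p had 9 counts, all in the liver, kidney cortex, whole kidney and jejunum, the first 3 of which were also the highest for its 3p arm. The joint name of miR-203a-3p had 6 counts, all of 1 sequence, tGAAATGTttaggaccag, which begins 1 base after the annotated start of miR-203a-3p. These last 2 names did not pass the filter on low counts and were not tested, so that 4 of the 6 names were.

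The study's atlas asked which miRNAs mark a tissue. A narrower question is how the 2 stomach regions of the same rats differ, and the lining was not measured apart from the wall. miR-205 and miR-203a-3p had counts in 214 and 215 of the 215 libraries, so neither was confined to a tissue. Both miR-205 and miR-203a-3p were higher in the non-glandular than in the glandular library of 10 of 10 rats. The mean within-rat difference of log2(CPM + 1) was 1.10 ± 0.811 for miR-205 and 1.15 ± 0.695 for miR-203a-3p (SD, n = 10). In the fit of all tissues the log2 fold change, non-glandular over glandular, was 1.77 ± 0.446 (SE) for miR-205 and 1.85 ± 0.587 for miR-203a-3p (edgeR quasi-likelihood test with Benjamini-Hochberg adjustment, adjusted p = 0.00456 and 0.0355). miR-203a-5p had a log2 fold change of 1.52 ± 0.668 (SE, adjusted p = 0.173) and miR-203b-3p of 0.13 ± 0.510 (SE, adjusted p = 0.988). In all, 2 of the 4 tested names were called higher and none lower (miR-203a-5p also had an unadjusted p under 0.05), where over all 1641 names 2.25% were called higher (37) and 4.02% lower (66).

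The 2 calls differed in firmness. With library totals alone as the scale, the log2 fold change was 0.95 ± 0.352 (SE) for miR-205 and 1.03 ± 0.501 for miR-203a-3p (edgeR, adjusted p = 0.0361 and 0.147), against a median of all names of -0.52, and 26 names were called higher and 340 lower. The call of miR-203a-3p was also lost without rat 7 or rat 10 (edgeR, adjusted p = 0.0576 and 0.0566), without either dorsal root ganglion pool (0.0537 and 0.0544) and on the first flow cell alone (0.0675). That of miR-205 was kept in all of these fits and with any other rat left out. Without the 10 libraries nearer another tissue, none of them from the stomach, both calls had far smaller adjusted p-values (1.70e-07 and 9.67e-11) at log2 fold changes of 1.82 and 1.90. The step was also seen when libraries were grouped by their deeper flow cell. Their CPM was taken over all runs, those on the first flow cell included. In 1 group the non-glandular libraries averaged 1039 ± 352 CPM of miR-205 (SD, n = 4) against 509 ± 313 in the glandular (SD, n = 5). In the other group these means were 1098 ± 125 (SD, n = 6) and 601 ± 234 (SD, n = 5).

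**Figure D3:**
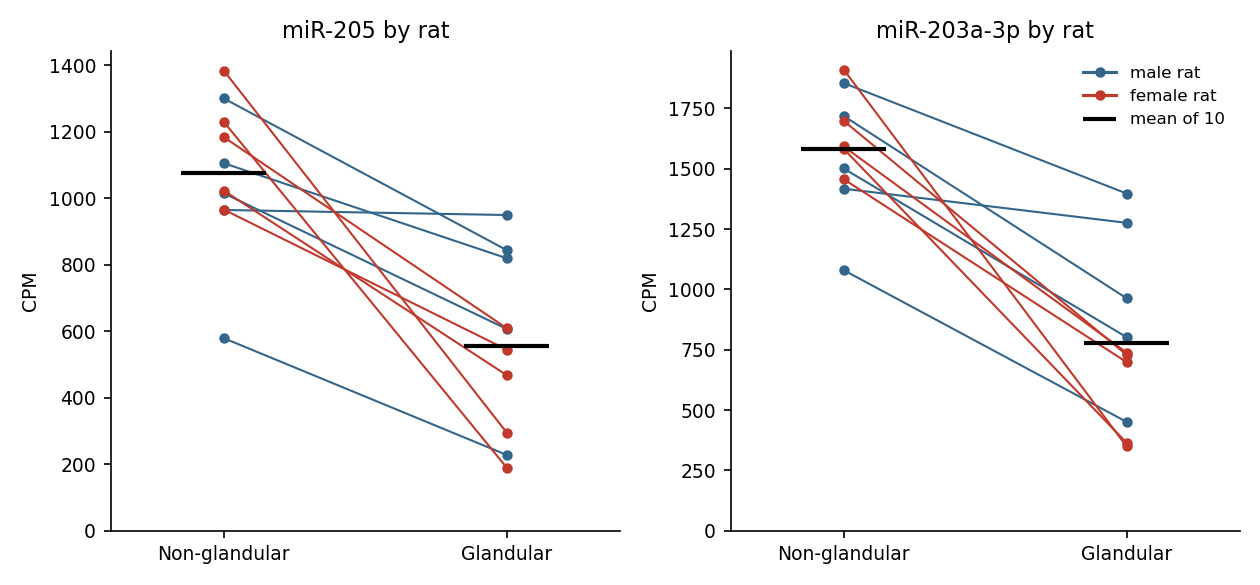
CPM of miR-205 (left) and miR-203a-3p (right) in the non-glandular and glandular stomach, 1 line per rat, males blue and females red, with black bars for the mean of 10. All 10 lines fall from the non-glandular to the glandular side in both panels.

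The ratio of miR-205 to miR-203a-3p, which does not depend on the scaling of a library, had a geometric mean of 0.671 in the non-glandular and 0.696 in the glandular stomach. On the log2 scale the within-rat difference was -0.0517 ± 0.287 (SD, 10 rats, higher in 4; SE 0.0906), which did not pass an exact two-sided sign-flip test (p = 0.588). Over the 10 libraries of a region, log2(CPM + 1) of miR-205 and miR-203a-3p correlated with Pearson's r = 0.941 (Spearman's rho = 0.891) in the glandular and 0.963 (0.915) in the non-glandular stomach. Permutation p-values of the 4 coefficients were 0.00012, 0.00112, 9e-05 and 0.00049, and 0.00108, 0.00672, 0.00108 and 0.00441 when adjusted over the 18 relations computed. Without the 2 libraries farthest from the median of miR-205, r was 0.956 and 0.846. These relations were chosen after the values had been seen. Both levels are shares of the same library total, of which smooth muscle miRNAs held 774153 to 882025 CPM in the non-glandular stomach. There miR-205 itself was lower where their sum was higher (Spearman's rho = -0.976, against -0.370 in the glandular stomach). The part of this shared total in the correlations was not tested. All 20 libraries also had runs on the first flow cell, with 166 to 776 counts of miR-205 in the glandular and 597 to 1202 in the non-glandular libraries. There r was 0.952 and rho 0.939 in the glandular stomach (permutation p = 0.00017 and 0.00024, adjusted over 18 relations within flow cells 0.00306 and 0.00432). In the non-glandular stomach r was 0.856 and rho 0.600 (permutation p = 0.0194 and 0.0733, adjusted 0.0698 and 0.189), so that the relation did not pass on that flow cell. Of the deeper flow cells, 1 held 6 non-glandular libraries, where r was 0.959 and rho 0.943 (exact permutation p = 0.00556 and 0.0167, adjusted 0.0333 and 0.0600). The other groups had fewer than 6 libraries.

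**Figure D4:**
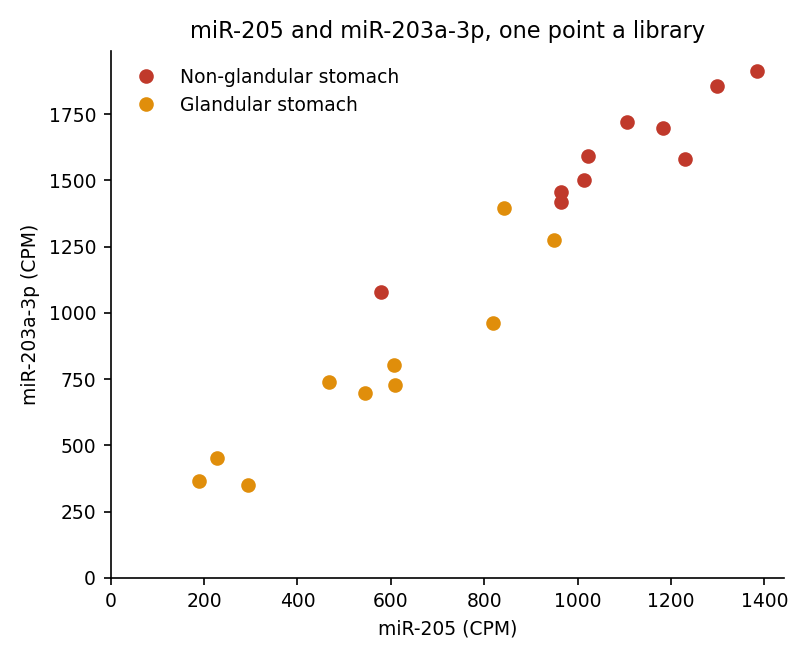
CPM of miR-205 against CPM of miR-203a-3p in the 20 stomach libraries, non-glandular red and glandular orange. Both regions lie along a common course, with ratios of miR-205 to miR-203a-3p of 0.671 and 0.696 on average. Both axes are shares of the same library totals.

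Other tissues spread widely around the ratio of the stomach. The hippocampus held the same ratio with all libraries (0.696) and 0.946 without the 3 nearer another tissue, and the uterus 0.430 with all and 0.759 without 1, so that the ratio was not particular to the stomach. The ileum and jejunum held 0.0278 and 0.0247 reads of miR-205 per read of miR-203a-3p and the liver 0.00538, so that high miR-203a-3p there came with little miR-205. Biceps and soleus had ratios of 3.43 and 1.35, and the ovary 2.32 without its library nearer another tissue (1.03 with it). In these 3 tissues the mean ratio of reads favoured miR-205. The study's authors hold that ligase bias affected quantitation in their sequencing. A ratio of reads between 2 miRNAs therefore need not be their ratio of molecules. The kidney medulla (0.383) and whole kidney (0.311) came closer to the stomach than the kidney cortex (0.0531).

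Against the mean of the other 22 tissues, 3 of the 4 tested names were called higher in the non-glandular stomach. Their log2 fold changes were 7.55 ± 0.270 (SE) for miR-205, 5.31 ± 0.319 for miR-203a-3p and 4.57 ± 0.364 for miR-203a-5p (edgeR quasi-likelihood test with Benjamini-Hochberg adjustment, adjusted p = 4.52e-66, 8.17e-37 and 8.23e-24), and that of miR-203b-3p was 0.02 ± 0.163 (SE, adjusted p = 1.0). Over all names 22.1% were called higher and 9.02% lower. With library totals as the scale the log2 fold changes were 5.77, 3.54 and 2.67, with miR-203b-3p lower by -1.78 (edgeR, adjusted p = 2.09e-05), and over all names 112 were called higher and 527 lower in place of 363 and 148. miR-205 had the smallest adjusted p of the 4.

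Tissue by tissue, miR-205 was called higher in the non-glandular stomach than in each of the 22 others, under every scaling tried. miR-203a-3p was called higher than in 20 and lower than in none, the exceptions being the ileum (log2 fold change 1.05, edgeR, adjusted p = 0.187) and jejunum (1.06, adjusted p = 0.204). With library totals as the scale this count was 18, and without the libraries nearer another tissue 22. miR-203a-5p was called higher than in 19 tissues, and than in 12 with library totals. miR-203b-3p was called higher than in 6 and lower than in 6, the latter being kidney cortex, whole kidney, liver, kidney medulla, jejunum and ileum, and with library totals as the scale higher than in 4 and lower than in 13. Pooled over these 22 comparisons, 16.7% of the tests over all names were called higher and 15.4% lower (6.15% and 38.4% with library totals).

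The 2 stomach regions were also compared for other epithelial and glandular miRNAs, in lists written with earlier results of these data known. The epithelial list is not particular to squamous cells. Its miR-200 family names had their highest means in the ileum or the pancreas, so the list was no test of the squamous label. None of the 11 epithelial names was called higher in the non-glandular than in the glandular stomach and 3 were called lower, with a median log2 fold change of -1.76 (all names 0.03, 4.02% called lower). Under the other scalings none was called higher, and 4 were called lower with RLE (4.75% of all names), 5 with TMM (7.56%) and 11 with library totals (20.7%). Without the libraries nearer another tissue 8 were (7.01%), and in a fit of the 2 regions alone 10 were (20.2%). The summed CPM of these names was 1164 to 2944 in the non-glandular and 6332 to 16048 in the glandular libraries. miR-31a-5p, like miR-205 a miRNA of squamous epithelia, was lower in the non-glandular stomach (81.8 against 606 CPM, log2 fold change -2.07 ± 0.568 SE, edgeR, adjusted p = 0.0104), as were its 3p arm and miR-200a-3p. miR-184, abundant in corneal epithelium, was at 1.05 and 3.11 CPM. No epithelial name on the list thus shared the direction of miR-205 and miR-203a-3p by the test.

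The glandular markers were lower in the non-glandular stomach as well. Of 7 names known from gut mucosa and endocrine cells 5 were called lower in the non-glandular stomach (4.02% of all names) and none higher, with a median log2 fold change of -3.18, and 5 to 7 were under the other scalings and 7 without the libraries nearer another tissue. miR-192-5p averaged 627 against 13403 CPM, and miR-375-3p, an endocrine cell miRNA, 258 against 3701. The list's summed CPM was 226 to 2076 in the non-glandular and 11640 to 41335 in the glandular libraries, without overlap. In the main fit none of the 4 smooth muscle, 4 striated muscle and 7 blood names passed the test in either direction. At an unadjusted p under 0.05 stood 1, 0 and 3 of them. Of the blood names DESeq2 called 1 lower (4.63% of all names), RLE scaling 1 (4.75%) and TMM 3 (7.56%). In a fit of the 2 regions alone 4 smooth muscle names were called higher (18.3% of all names) and 3 of 6 blood names lower (20.2%). With library totals as the scale 6 blood names and 1 striated muscle name were called lower, where 20.7% of all names were. The median of the smooth muscle names was then -0.14 in place of 0.73, and that of all names -0.52 in place of 0.03, so that it lay above that of all names on both scales. Without the 10 libraries nearer another tissue 3 smooth muscle names were called higher and 3 blood names lower. The smooth muscle sum was 774153 to 882025 CPM in the non-glandular and 683551 to 799102 in the glandular libraries, and the blood sum 118 to 266 against 350 to 813. The part of these differences in make-up in the levels of miR-205 and miR-203a-3p was not tested.

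Across the tissue means, miR-203a-3p was the name most like miR-205 by Spearman's correlation of mean log2(CPM + 1) over the 23 tissues (0.629), among 323 names that reach a mean of 100 CPM in some tissue. Next came miR-200a-3p (0.562), miR-200b-3p (0.558), miR-429 (0.557) and miR-145-3p (0.552). Without the libraries nearer another tissue the order changed, with miR-145-3p first (0.627) and miR-203a-3p second (0.624). The names most like miR-203a-3p were the 5 members of the miR-200 family, led by miR-200b-3p (0.818) and miR-200c-3p (0.793). Those most like miR-203b-3p were the 2 arms of miR-10a (0.698 and 0.695), whose highest tissue is the kidney medulla. All points share their libraries and totals, and the coefficients are a description.

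Sex was compared in the 19 tissues that both sexes gave, 5 rats a sex. In the stomach neither miRNA was called. Females and males averaged 421 and 689 CPM of miR-205 in the glandular (log2 fold change female over male -0.68 ± 0.587 SE, edgeR, adjusted p = 0.873) and 1157 and 992 in the non-glandular stomach (-0.30 ± 0.584 SE, adjusted p = 0.976). In the latter the fitted fold change, over scaled library sizes, has the opposite sign to the difference of mean CPM, and no direction is given. Over all tissues and the 4 names, 4 of 76 tests were called, where 1.49% of the tests over all names were. They were miR-205 (12.7 against 2.81 CPM) and miR-203a-3p (297 against 53.2) in the adrenal, higher in females, and miR-203a-3p (log2 fold change female over male -4.99) and miR-203a-5p in the hippocampus, higher in males. All 4 rested on the libraries of adrenal rat 8 and hippocampus rat 6, which correlated better with jejunum and duodenum than with their labels. Without the 10 such libraries there was no call by edgeR (5 of 76 at an unadjusted p under 0.05, smallest adjusted p = 0.170), whereas DESeq2, run with them, made 4.

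The within-rat step between the stomach regions was set against sex. For miR-203a-3p it was 1.59 ± 0.645 in the 5 females and 0.711 ± 0.435 in the 5 males on the log2(CPM + 1) scale (SD), a difference of 0.879 (exact two-sided permutation test, p = 0.0317, adjusted over both miRNAs 0.0635; smallest p possible 0.00794). For miR-205 it was 1.57 ± 0.838 and 0.632 ± 0.482 (exact p = 0.0635). Neither difference passed at 0.05 after adjustment.

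The table of single sequences shows which forms of the 2 miRNAs were read. They are given as sequenced, in DNA letters, with bases 2 to 8 in capitals, because the start of a miRNA sets its seed:
miR-205, most counted: tCCTTCATtccaccggagtctg
miR-205, annotated form: tCCTTCATtccaccggagtctgt
miR-203a-3p, annotated form: gTGAAATGtttaggaccactag
miR-203a-3p, starting 1 base later: tGAAATGTttaggaccactagt
The start of miR-205 was nearly fixed, with 95.7% of counts at the annotated base. Its most counted form, with 60373 counts, ends 1 base before the annotated form, which had 38386. miR-203a-3p began at 2 positions, with 53.2% of 448040 counts at the annotated base and 43.2% 1 base later, where bases 2 to 8 read GAAATGT in place of TGAAATG. miR-203b-3p kept to 1 start, with 95.3% at the annotated base.

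The forms were close in the 2 stomach regions. The later start of miR-203a-3p made up 44.0% ± 2.17 (SD, n = 10) in the non-glandular and 42.6% ± 4.25 in the glandular stomach. Of 27 shares of starts, ends, lengths and added bases of both miRNAs, none passed an exact two-sided sign-flip test over the 10 rats (smallest adjusted p = 0.105, smallest unadjusted p = 0.00391, where 0.00195 is the smallest possible). On lane 8 of 1 flow cell, 50.0% of the counts of miR-205, miR-203a-3p and miR-203b-3p carried an extra or unplaced first base, against 0.419% to 11.2% on the other lanes. Its 14 runs, which among the stomach libraries touch that of glandular rat 4 alone, are left out of the following shares.

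Between tissues the later start of miR-203a-3p did vary. It made up 49.0% ± 3.79 in the pancreas, 48.5% ± 2.91 in the liver and 48.2% ± 2.62 in the jejunum, but 31.1% ± 2.15 in the kidney cortex (SD, n = 10 each) and 32.4% ± 2.75 in whole kidney (SD, n = 9). No kidney cortex library (28.2% to 33.7%) overlapped with a jejunum (44.9% to 52.5%) or liver library (44.2% to 53.1%). Both stomach regions lay between, at 44.0% ± 2.17 and 44.1% ± 1.22. Reads with the later start more often carried bases added at the 3′ end that the hairpin does not hold: 45.1% against 9.10% of the annotated start in the non-glandular stomach, 74.7% against 14.4% in the pancreas and 36.6% against 9.31% in the kidney cortex. Tissues were picked here for their values and no test was made.

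**Figure D5:**
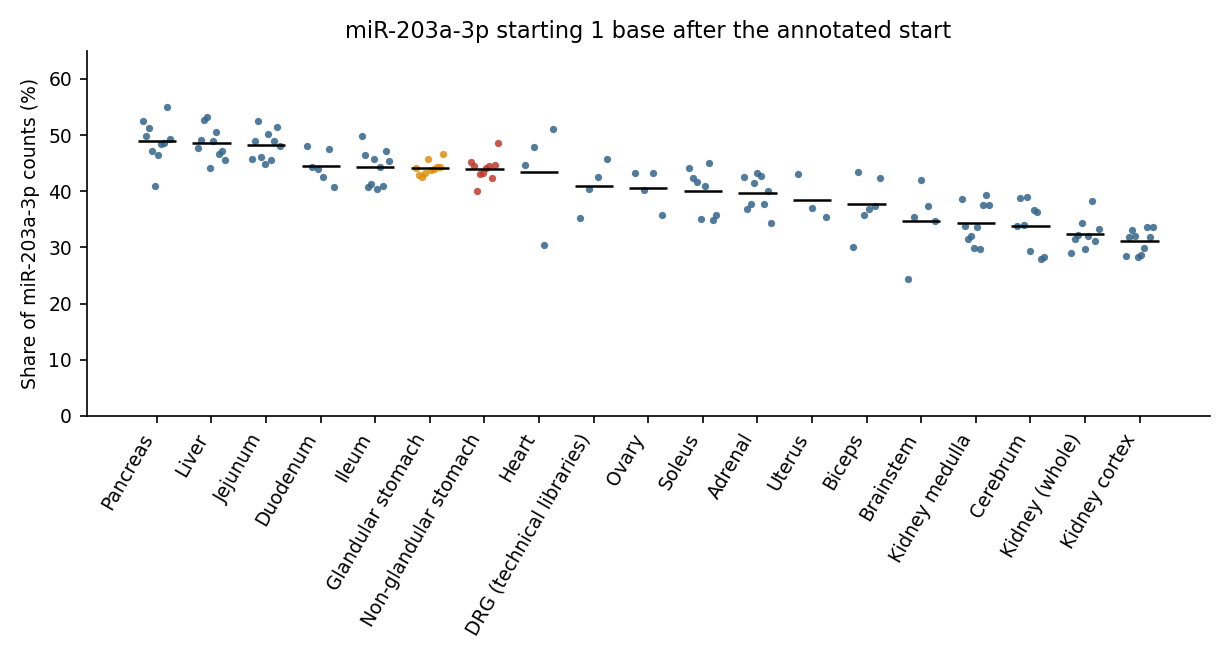
Share of miR-203a-3p counts that begin 1 base after the annotated start, in percent, by tissue for libraries with at least 100 counts, without the libraries nearer another tissue and without lane 8 of 1 flow cell. Tissues with few such libraries, such as the hippocampus (23.3% and 29.9%), are not shown. Among the tissues shown the shares fall from means near 49.0% in the pancreas to 31.1% in the kidney cortex, with both stomach regions near 44.0%.

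The 3′ end of miR-205 differed between tissues as well. In the non-glandular stomach a mean of 28.1% of counts reached the annotated last base (26.9% to 30.8%, n = 10) and in the glandular stomach 30.4% (27.2% to 35.8%, n = 10). In whole kidney 45.6% did (42.5% to 48.8%, n = 9) and in the kidney medulla 45.5% (41.3% to 48.5%, n = 9). Most of the other reads ended 1 base earlier, 61.1% in the non-glandular stomach and 45.2% in whole kidney. No stomach library overlapped with one of whole kidney or kidney medulla, whereas the kidney cortex, at 45.8% with few reads, ranged from 31.5% to 52.6% (n = 5) and did. At least 340 counts per library stood behind the shares of whole kidney and at least 193 behind those of the kidney medulla, and these tissues were likewise chosen after the values had been seen.

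A last reading of miR-205 comes from the other arm of its hairpin, which the table lists under a precursor name and a predicted 3p arm and which is no member of the list above. Its most counted sequence, gATTTCAGtggagtgaagctca (bases 2 to 8 in capitals), had 737 of its 1063 counts. It averaged 8.41 ± 2.34 CPM in the non-glandular and 4.43 ± 2.47 in the glandular stomach (SD, n = 10 each), with a mean of at most 0.742 in any other tissue. The order of the first 2 tissues was thus that of miR-205 itself. The testis had no count of this arm, but its libraries held only 376401 to 653651 counts. In the largest of them 1 count is 1.53 CPM, so that a level in the testis above 0.742 CPM was not excluded.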

How the data were processed

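Small RNA libraries (TruSeq, HiSeq 2000) were sequenced by the authors, and adaptors were trimmed with cutadapt 1.4.1 per the submitters' processing notes. The authors deposited raw counts of reads per miRNA name and per isomiR sequence for each run, without normalization. Names with a predicted miRNA rest on the authors' own predictions, and a sequence that fits several names carries a joint name.

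Of the 458 deposited runs, 14 repeat a flow cell lane of their library and were set aside. The other 444 were added up to 215 libraries. The libraries of the dorsal root ganglion were summed to their 2 pools for the fits, giving 207 samples. CPM was computed over library totals. Where a miRNA had no count in a tissue, 3 counts of the summed totals give the upper limit, for counting error only.

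Tissues were compared with the quasi-likelihood F test of edgeR 4.0.16 (R 4.3.3), after filterByExpr by tissue and scaling to the upper quartile, in 1 fit of 23 tissues over 1641 names. The sexes had a fit of 19 tissues over 1122 names. Calls were made at an adjusted p under 0.05. DESeq2 1.42.0 was an alternative. Both steps were tested on simulated data, built from a common mean profile for all tissues and the same dispersion for all names. These data lacked the differences between tissues, the larger share of miR-143-3p in the stomach and the libraries nearer another tissue. The rates that follow hold for the simulation and need not hold for the fits reported here. Between the stomach regions 22% of names changed by a log2 fold change of 1 were recovered, and 77% of those changed by 2. Of the calls 5.71% were false. For sex in the glandular stomach 58% were recovered at a log2 fold change of 2 and 87% at 4, with 5.84% of calls false. Other steps used Python 3.11.15, numpy 2.4.6, scipy 1.17.1, pandas 2.3.3 and matplotlib 3.10.9. For permutation tests 100000 resamples were drawn, and all permutations were enumerated when a group had fewer than 10 values. A library was taken as nearer another tissue when its median correlation with that tissue's libraries (on log2(CPM + 1), over names that average more than 1 CPM) exceeded that with its own by more than 0.05.

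The rats' numbers pair the samples, since the same rats gave the tissues. Deviations from the tissue means correlated with a median r of 0.0158 between tissues of 1 rat (2000 pairs) and of -0.00613 between tissues of unlike rats (18025 pairs). No term for the rat was fitted in the main model, after the study's methods.

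The miRNAs named are all names chosen by the rule of the opening, the 5 most like each abundant member, the marker lists and those with a shared seed, plus miR-143-3p. Members, lists and tests were chosen with earlier results of these data known. IsomiR shares used libraries with at least 100 counts of the miRNA.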

Additional observations from a re-analysis of the deposited data

Results flagged for a closer look

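Of 66 groups of libraries in which a miRNA's highest or lowest library was tested for standing apart from the others, 11 did, where chance gives about 1 in 20 groups. Of the 11, 6 were libraries that correlated better with another tissue than with their label. These are adrenal rat 8, with miR-205 at 53.8 CPM (others up to 5.02) and miR-203a-3p at 1268 CPM, hippocampus rat 6, with miR-203a-3p at 1339 and miR-203b-3p at 11.6 CPM, ovary rat 11 with miR-203a-3p at 1408 CPM, and uterus rat 8 with miR-203a-3p at 1301 CPM. The other 5 were miR-205 in heart rat 11 at 4.86 CPM, miR-205 in non-glandular stomach rat 3 at 579 CPM, the lowest of its group, miR-203a-3p in brainstem rat 11 at 39.6 CPM, miR-203a-3p in biceps rat 5 at 51.6 CPM, and miR-203b-3p in cerebellum rat 3 at 1.36 CPM. The last value was 3 counts in a library of 2207930, and the cerebellum of rat 9 also had 3 counts. For counts this low the rate of 1 in 20 need not hold.

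The within-rat difference of miR-203a-3p between the stomach regions was larger in females than in males by 0.879 on the log2(CPM + 1) scale, with an exact permutation p of 0.0317 and 0.0635 when adjusted over 2 miRNAs. The precursor-labelled 3p arm of miR-205, outside the names examined, averaged 8.41 CPM in the non-glandular stomach. It had no count in liver, heart, cerebellum, testis and blood. In heart and blood 3 counts of the summed totals are 0.0536 and 0.0461 CPM, for counting error only. The testis libraries held only 376401 to 653651 counts, and 1 count in the largest is 1.53 CPM. The lack of counts in the testis therefore does not show that the arm is absent there.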

How the results depend on the processing

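Of the values that answer a comparison, 156 of 169 recomputed under an alternative kept their direction and their side of the threshold. Those that did not were the call of miR-203a-3p between the stomach regions (main log2 fold change 1.85), which was lost with library totals alone (1.03, chosen after seeing the data), on the first flow cell alone (1.63), without rat 7 (1.79) or rat 10 (1.86), and without the male (1.75) or female (1.74) dorsal root ganglion pool, the CPM of the non-glandular stomach over scaled library sizes (3534 for miR-205, 5251 for miR-203a-3p) and the sex calls (4), which fell to 0 without the libraries nearer another tissue. With each rat left out in turn the fold change of miR-203a-3p ran from 1.78 to 1.99, that of miR-205 from 1.70 to 1.93 and the sex calls from 1 to 6. With the rat as a replicate block the stomach fold changes were 1.84 (miR-205, edgeR, adjusted p = 0.00178) and 1.89 (miR-203a-3p, adjusted p = 0.0212), and in the 2 regions alone with the block 2.03 and 2.08. The block changed no call of miR-205 or miR-203a-3p between the regions or against all tissues, and tissue by tissue, in the 21 contrasts it allows, miR-205 was called higher in 21 and miR-203a-3p in 19 (main 22 and 20 of 22). With it 30 names were called higher and 60 lower (66 and 78 in the 2 regions alone). Names called higher between the regions numbered 62 with RLE size factors, 56 with no filter, 77 in the 2 regions alone and 84 without the libraries nearer another tissue, and those called lower 124 with TMM, 113 without those libraries and 43 without rat 4 (main 37 and 66). Against all tissues 574 were called higher and 87 lower with no filter, and 78 lower on the first flow cell alone (main 363 and 148).

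Signs turned for miR-203b-3p, which was not called. Between the regions it was -0.19 with TMM, -0.74 with library totals and -0.78 on the first flow cell alone, and against all tissues -0.21, -1.78 and -0.91, -0.15 and -0.11 without the male or female pool, and -0.16 to 0.17 with each rat left out. The value of -1.78, with library totals, was called. Of isomiR shares, the later start of miR-203a-3p (main 1.37 percentage points, non-glandular minus glandular) was -0.51 on the first flow cell alone and -0.10 without lane 8, and 3′ additions to miR-205 (main 0.23) were -0.43 without lane 8. Leaving out lane 8, the 2 regions with the block, the other flow cells for the ratio and library totals were chosen after seeing the data. The causes were not tested. Depth limits miR-203a-5p and miR-203b-5p, with 515 and 9 counts.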

Other observations

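Beside miR-203a-3p, the miR-205 level of the 10 libraries of each stomach region was set against 8 other measures, which makes 18 relations in all, chosen after the values had been seen. In the non-glandular stomach miR-205 was lower where the summed smooth muscle miRNAs were higher (Spearman's rho = -0.976, permutation p = 2e-05, adjusted 0.00036; Pearson's r = -0.755, p = 0.0311, adjusted 0.133). Without the 2 libraries farthest from the median of miR-205 (8 left), r was -0.833. On the first flow cell alone r was -0.752 and rho -0.782 (permutation p = 0.0108 and 0.0107, adjusted over 18 relations within flow cells 0.0484 and 0.0480), and in the 6 non-glandular libraries of 1 deeper flow cell -0.928 and -1.0 (exact permutation p = 0.00139 and 0.00278, adjusted 0.0125 and 0.0250). In the glandular stomach the same relation gave r = -0.330 (permutation p = 0.354) and rho = -0.370 (p = 0.298). Smooth muscle miRNAs held 774153 to 882025 CPM of the non-glandular libraries, so the values of both sides share a total that one of them nearly fills. No other of these relations passed after adjustment. The summed blood miRNAs had r = 0.744 (permutation p = 0.00979, adjusted 0.0587; rho = 0.588, p = 0.0825) in the non-glandular stomach, which fell to 0.423 without the 2 farthest libraries, and 0.0893 (p = 0.815) in the glandular. The summed epithelial miRNAs had r = 0.647 (permutation p = 0.0443, adjusted 0.133; rho = 0.721, p = 0.0235) in the non-glandular and 0.0302 (p = 0.935) in the glandular stomach. The summed striated muscle miRNAs had r = 0.659 (permutation p = 0.0416, adjusted 0.133; rho = 0.673, p = 0.0388) in the glandular and 0.102 (p = 0.812) in the non-glandular stomach.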
